A study of Homo sapiens with 6 samples.

Results

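The exon usage of unperturbed control cells was described from the skipped-exon summary that the authors deposited for siCtrl. MDA-LM2 is a lung-metastatic derivative of the human breast cancer line MDA-MB-231, and siCtrl cells received a control siRNA with a lipid reagent. RNA was taken 48 hours later and made into stranded total RNA libraries with a kit for low input. The 2 siCtrl libraries of the series enter 1 summary, so the control group is 1 pool with no replicate spread, no SD and no test, and the knockdown pools were not compared with it. An exon was kept when at least 20 reads fitted only its inclusion or only its skipping, and an exon listed in several events was taken once, from the event with the most such reads. This left 18961 of the 39275 middle exons in the siCtrl summary, or of the 40658 in any summary of the series, in 7594 genes.

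A cassette exon is one that the spliceosome can either join into the mRNA or leave out together with its flanking introns. Inclusion of a coding exon adds a stretch of protein when its length is a multiple of a codon, and otherwise shifts the reading frame. Some exons bring in a stop codon that sends the mRNA to nonsense-mediated decay. Breast cancer cells of mesenchymal type are known for a set of such exons that differ from those of epithelial cells, many of them in genes of adhesion, the cytoskeleton and vesicle traffic.

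The exons shown first are those on which the description turns, all coding but the RPS24 exon, which lies in a 3′ UTR: 3 that nearly all transcripts contained, 6 that were used at an intermediate level and 4 that nearly all transcripts lacked. They are drawn from annotated transcripts on hg38 and written 5′ to 3′. Capitals mark the first base and the last 3 bases, which lie against the splice sites.
CLTA 118 nt, chr9:36198979-36199096, plus strand: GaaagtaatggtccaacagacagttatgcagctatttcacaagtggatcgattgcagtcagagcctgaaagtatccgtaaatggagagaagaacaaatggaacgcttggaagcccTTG
CTNND1 72 nt, chr11:57794010-57794081, plus strand: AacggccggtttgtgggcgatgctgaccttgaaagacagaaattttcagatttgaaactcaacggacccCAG
CTNND1 63 nt, chr11:57814311-57814373, plus strand: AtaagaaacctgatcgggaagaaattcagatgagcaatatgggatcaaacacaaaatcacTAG
RPS24 22 nt, chr10:78040204-78040225, plus strand: TgagctggagattggatcaCAG
FLNA 24 nt, chrX:154357251-154357274, minus strand: TgtcaatcggaggtcacgggcTAG
SNRPG 23 nt, chr2:70289350-70289372, minus strand: AtttatggacaagaagttatCAT
HNRNPM 45 nt, chr19:8473664-8473708, plus strand: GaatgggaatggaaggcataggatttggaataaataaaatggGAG
SPTAN1 60 nt, chr9:128592983-128593042, plus strand: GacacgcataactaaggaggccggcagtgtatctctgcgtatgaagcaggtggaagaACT
CTTN 111 nt, chr11:70421470-70421580, plus strand: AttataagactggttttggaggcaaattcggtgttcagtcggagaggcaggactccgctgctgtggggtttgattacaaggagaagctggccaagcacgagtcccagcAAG
CLTA 54 nt, chr9:36209267-36209320, plus strand: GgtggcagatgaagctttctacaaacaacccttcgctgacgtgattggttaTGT
CLTB 54 nt, chr5:176396479-176396532, minus strand: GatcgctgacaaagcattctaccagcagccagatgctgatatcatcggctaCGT
RAC1 57 nt, chr7:6398662-6398718, plus strand: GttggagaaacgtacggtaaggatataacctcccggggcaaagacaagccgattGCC
ENAH 63 nt, chr1:225504991-225505053, minus strand: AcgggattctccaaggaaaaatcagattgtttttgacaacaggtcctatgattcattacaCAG
Of these 13 exons, 10 have a length divisible by 3, 6 begin with G and 7 end in AG. They were picked as examples, so these counts describe only them. Among all coding exons, 48.7% had a length divisible by 3. The 54 nt exons of the clathrin light chain genes CLTA and CLTB, which code for the brain form of the chain, share 35 of 54 bases (64.8%) when laid side by side without gaps.

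The inclusion level runs from 0, always skipped, to 1, always included, and was given by the authors with an interval whose width is not stated. Levels had a median of 0.83 with quartiles of 0.20 and 0.96. At 0.9 or more stood 8115 exons (42.8%), and at 0.1 or less 3908 exons (20.6%). The authors' interval lay wholly within 0.1 to 0.9 for 4246 exons (22.4%), which are called intermediate. The median width of the interval was 0.11. Reads that fit only inclusion or only skipping, called informative, numbered 5104482 in all, 4511778 for inclusion and 592704 for exclusion, with a median of 84 per exon and a range from 20 to 105467. Just inside the read threshold, the 992 exons with 20 to 22 informative reads had a median level of 0.47, and the 1035 exons just outside it, with 17 to 19, had 0.48.

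**Figure D1:**
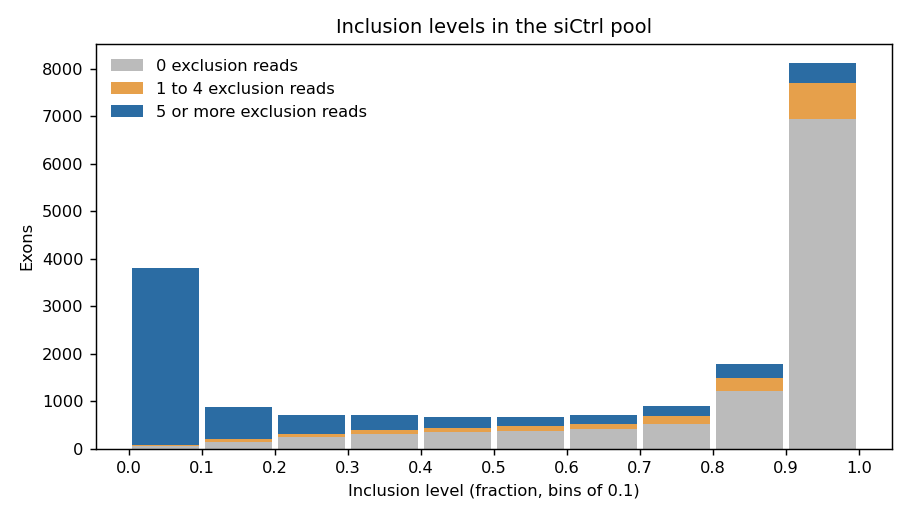
Number of exons (vertical axis) in bins of the inclusion level (horizontal axis, fraction), coloured by the number of exclusion reads. The 8115 exons at 0.9 or more and the 3795 below 0.1 stand at the ends, and much of the middle is grey, without an exclusion read.

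An intermediate level did not always come with reads for skipping. Of the 4246 intermediate exons, 1888 (44.5%) had 0 exclusion reads, 529 had 1 to 4 and 1829 had 5 or more. ACTB, which encodes beta-actin, shows this in a 129 nt exon at chr7:5529535-5529663: its level was 0.24 (authors' interval 0.24 to 0.25) with 10861 inclusion reads and 0 exclusion reads, which allows a share of exclusion reads of up to 0.0276%. The same held for the 5916 nt exon of SON, a scaffold protein of nuclear speckles, at a level of 0.41 with 20590 inclusion reads and 0 exclusion reads (up to 0.0146%). Events of such exons held many reads that fit both forms and so lie in the flanking exons, 92705 in the ACTB event, and these reads also enter the level.

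Across the 10618 exons (56.0% of all) with 0 exclusion reads, the level was lower where reads of the flanking exons were denser against reads of the exon itself. In 4 equal parts of these exons by that ratio, from low to high, the median level was 0.98, 0.97, 0.93 and 0.54, and 0%, 0%, 0.113% and 71.0% of exons were intermediate. Without exclusion reads, the level and that ratio both rest on inclusion reads and flanking-exon reads, so this order follows largely by construction. These exons share 1 pool and are not replicates. What set the flanking reads of these exons was not tested. Because a level could be intermediate without any exclusion read, a second count is given throughout. This count takes intermediate exons with at least 5 inclusion and at least 5 exclusion reads, a requirement added after the data were seen. It was met by 1829 exons (9.65%) in 1376 genes, 18.1% of the genes, and these are called intermediate with both kinds of read. Among them the median level was 0.41 while the median share of inclusion reads was 75.8%. Inclusion reads can fall anywhere in the exon, while exclusion reads must cross 1 junction, so the share is not on the scale of the level.

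Near-complete inclusion also rested mostly on the lack of exclusion reads. Of the 8115 exons at 0.9 or more, 6951 (85.7%) had none. Among the exons at 0.1 or less, 1377 (35.2%) had 0 inclusion reads, whereas 1571 (40.2%) had 5 or more. The deepest highly included exons that did have at least 5 exclusion reads belonged to housekeeping and structural genes. A 3381 nt exon of PLEC, which encodes the cytoskeletal linker plectin, had a level of 0.99 with 80008 inclusion and 51 exclusion reads. In PKM, pyruvate kinase, a 92 nt exon stood at 1.00 with 9426 and 5 reads, and in LDHA, lactate dehydrogenase A, a 118 nt exon stood at 1.00 with 9239 and 13. An 81 nt exon of NAP1L1, a histone chaperone, had 9917 inclusion and 22 exclusion reads. Exclusion reads of these exons were thus present but few.

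At the skipped end the deepest exons were small or untranslated. A 41 nt exon of ACTB annotated in decay transcripts had 0 inclusion and 7217 exclusion reads, which allows an inclusion share of up to 0.0416%. A 33 nt coding exon of NAP1L1 had 0 and 5868, with an upper limit of 0.0511%, although a gene on the other strand overlaps it. In the 5′ UTR of YWHAE, which encodes the 14-3-3 epsilon adaptor, a 33 nt exon had a level of 0.04 with 135 inclusion reads of 3185 (4.24%, 95% Wilson interval 3.59 to 5.0). MPRIP, a myosin phosphatase partner, was the exception in length: its 3807 nt coding exon had a level of 0.08 with 7060 inclusion and 2162 exclusion reads. Wilson intervals cover counting error only, since the pool has no replicate spread, and the reads carry no molecular identifiers.

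The place of the exon in its gene went with large differences in level. Among 11075 exons that lay wholly in coding sequence, the median level was 0.92, 56.1% stood at 0.9 or more and 7.86% at 0.1 or less. The 1559 exons wholly in a 5′ UTR had a median of 0.27, with 18.7% at 0.9 or more and 36% at 0.1 or less. Coding exons thus exceeded 5′ UTR exons by 37.5 percentage points in the share that was highly included. Exons that were only partly coding (1450) lay near coding exons, with a median of 0.89. Exons annotated only in transcripts marked for nonsense-mediated or non-stop decay (2308) had the lowest median, 0.06, and 56.8% of them stood at 0.1 or less. Exons found only in noncoding transcripts of coding genes (1362) followed at 0.12. Exons of noncoding genes (564) lay near all exons, with a median of 0.84 against 0.83 and 42.2% at 0.9 or more against 42.8%.

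**Figure D2:**
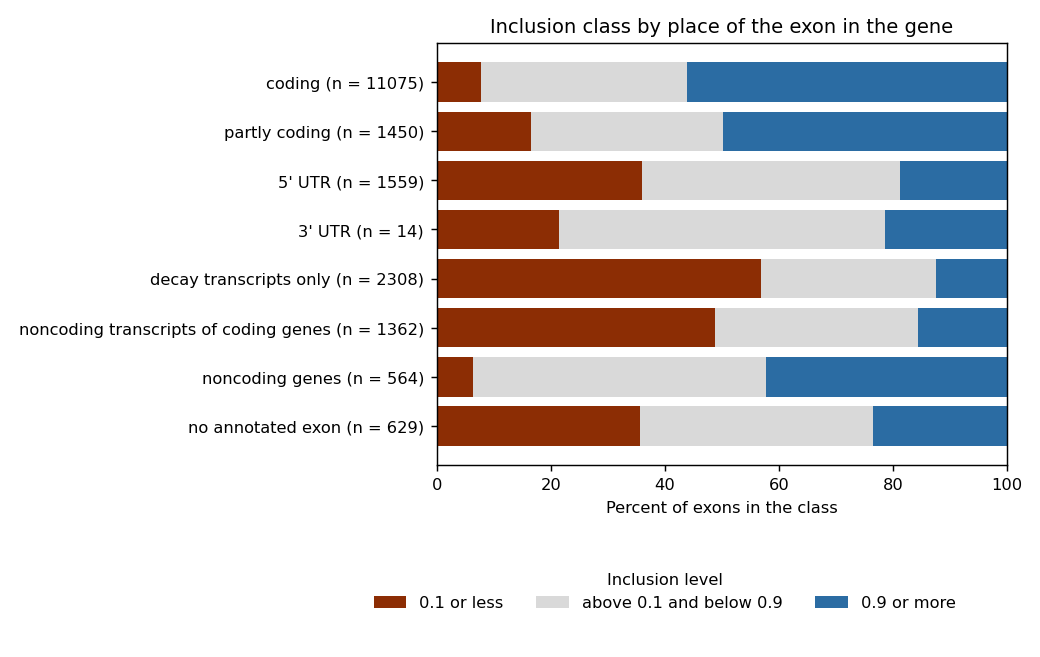
Percent of exons (horizontal axis) at an inclusion level of 0.1 or less, between, and 0.9 or more, for each annotated place of the exon (vertical axis, with the number of exons). Coding exons are mostly at 0.9 or more (56.1%) and exons of decay transcripts mostly at 0.1 or less (56.8%).

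Intermediate use with both kinds of read was most frequent in the 5′ UTR among the places with over 100 exons, at 17.8% (278 exons) against 7.88% (873) of coding exons and 9.65% of all. GNB1, a G protein beta subunit, used a 49 nt leader exon at 0.87 (0.86 to 0.89) with 1449 inclusion and 173 exclusion reads. In ALDOA, the glycolytic enzyme aldolase A, a 52 nt leader exon stood at 0.77 with 1308 and 155. TCEAL9 had a 79 nt leader exon at 0.88 with 1447 and 149. Leader exons of these genes were thus present in most but not all transcripts. In noncoding genes the deepest examples were a 176 nt exon of LRRC75A-AS1 at 0.58 and a 62 nt exon of ZFAS1, a snoRNA host gene, at 0.39 with 354 inclusion and 336 exclusion reads. Only 14 exons lay wholly in a 3′ UTR. They included the 22 nt exon of RPS24, a protein of the small ribosomal subunit, which is printed above, at 0.25 (0.24 to 0.27) with 773 inclusion and 1642 exclusion reads.

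Membership in the principal transcript, the isoform that the annotation marks as the main product of the gene, went with the level as well. The 10805 exons in a principal transcript had a median of 0.93 and 2.68% stood at 0.1 or less. The 8156 others had a median of 0.17 and 44.4% stood at 0.1 or less. Both in and outside principal transcripts 5′ UTR exons were lower than coding exons, with medians of 0.595 (in) and 0.11 (outside) against 0.94 and 0.26.

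Decay exons include the poison exons of SR proteins, splicing factors that limit their own level by including an exon with an early stop codon. Of the 2308 decay exons, 1678 held the stop codon of their decay transcript, and these had a median level of 0.06. The 4 sequences printed here show how soon the frame ends: each runs from the first base of the exon to that stop codon, which is in capitals.
SRSF6 152 nt, chr20:43459153-43459304, plus strand: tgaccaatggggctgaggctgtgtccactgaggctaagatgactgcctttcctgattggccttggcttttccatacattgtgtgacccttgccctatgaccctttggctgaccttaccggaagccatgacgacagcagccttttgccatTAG
TRA2B 81 nt, chr3:185931772-185931852, minus strand: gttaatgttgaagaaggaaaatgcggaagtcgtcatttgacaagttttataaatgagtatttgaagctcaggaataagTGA
SRSF3 34 nt, chr6:36599821-36599854, plus strand: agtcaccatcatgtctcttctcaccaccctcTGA
SRSF7 22 nt, chr2:38749152-38749173, minus strand: ggcagaaaatttgagacggTGA
SRSF6 used its 268 nt exon at 0.06 (0.05 to 0.07) with 277 inclusion and 1356 exclusion reads. SRSF3 used a 456 nt exon at 0.14 (0.13 to 0.16) with 512 and 258, and a 98 nt form from another place in the gene at 0.00 with 2 and 1183. In SRSF7 the 276 nt exon stood at 0.05 and a longer 449 nt form at 0.07. TRA2B stood apart, with its 276 nt exon at 0.49 (0.45 to 0.55) and 425 inclusion reads against 41. SRSF11, SRSF4 and SRSF2 had decay exons between 0.01 and 0.12, the one of SRSF2 overlapping a gene on the other strand. Of the 11 named decay exons of SRSF and TRA2 genes, 7 stood at 0.1 or less, beside 56.8% of all 2308 decay exons. The level describes the RNA present at 48 hours, and how fast these transcripts decay was not measured.

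Decay exons outside the SR family included those of the RNA-binding proteins HNRNPDL, a 105 nt exon at 0.30 with 192 inclusion and 357 exclusion reads, and HNRNPD, a 107 nt exon at 0.08 with 40 and 217. EIF4A2, an RNA helicase of translation initiation, had a 107 nt exon at 0.22 with 541 and 1267. SETD5, a chromatin regulator, had a 193 nt exon at 0.56 with 500 and 189. Decay exons at an intermediate level with both kinds of read were 237 (10.3%), close to the 9.65% of all exons.

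Among coding exons, the reading frame divided the levels. The 5388 frame-keeping exons, whose length is a multiple of 3, had a median of 0.89, and 12.8% of them stood at 0.1 or less. The 5687 frame-shifting exons had a median of 0.94, and 3.24% stood at 0.1 or less. Intermediate levels were found in 24.8% and 19%, a difference of 5.79 percentage points, and with both kinds of read in 10.8% and 5.15%. Within principal transcripts the same order held, with 8.89% of frame-keeping and 4.68% of frame-shifting exons intermediate with both kinds of read. At 0.1 or less stood 2.99% and 0.375% of these exons, and outside principal transcripts 47.9% of the frame-keeping and 26.5% of the frame-shifting coding exons.

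**Figure D3:**
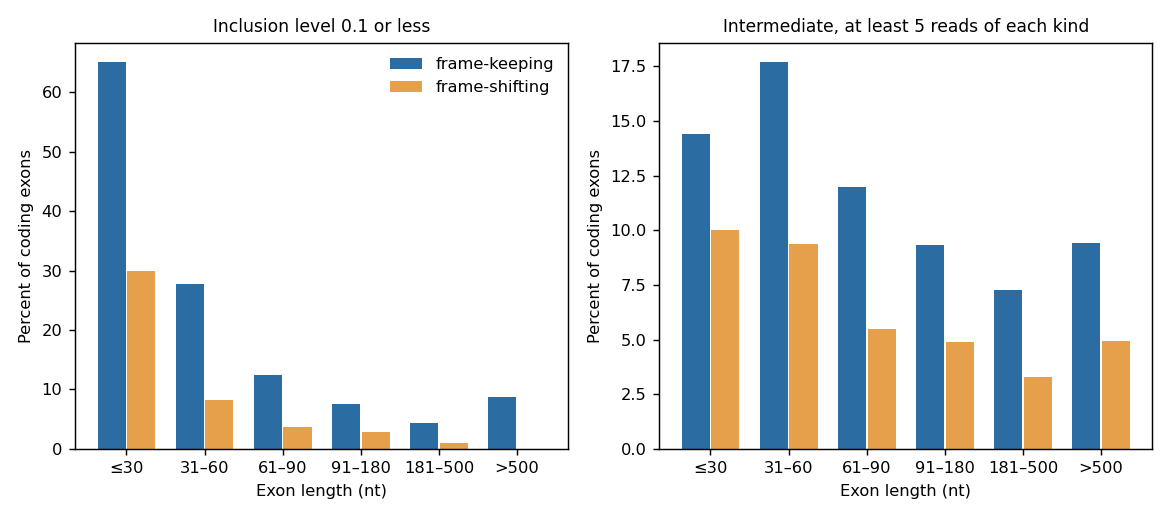
Percent of coding exons (vertical axes) at 0.1 or less (left) and intermediate with at least 5 reads of each kind (right), by exon length (horizontal axes) and frame. Frame-keeping exons are the higher bar in each length class of both panels, and the left bars fall from 65.1% at 30 nt or less to 4.42% in the class up to 500 nt.

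Exon length separated the levels further. The 353 exons of at most 30 nt, often called microexons, had a median of 0.03, and 65.4% stood at 0.1 or less. The 9272 exons of 91 to 180 nt had a median of 0.84, with 19.5% at 0.1 or less. Most of the microexons, 249, lay outside principal transcripts, with a median of 0.02. The 104 within had a median of 0.715 and 30.8% at 0.1 or less, below the medians of 0.92 to 0.94 in the longer classes there. By the interval alone, 13.9% of microexons and 22.7% of 91 to 180 nt exons were intermediate, a difference of -8.81 percentage points. That order turned when 5 reads of each kind were asked for, to 12.2% against 9.38%, and with read shares in place of levels, to 12.2% against 11.4%. Among microexons 69.4% had a length divisible by 3, against 41.6% of all exons. The 209 frame-keeping coding microexons had a median of 0.03, and the 40 frame-shifting ones 0.905.

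Several microexons were used in part by these cells. FLNA encodes filamin A, which crosslinks actin, and its 24 nt exon at chrX:154357251-154357274 stood at 0.48 (0.44 to 0.53) with 440 inclusion and 39 exclusion reads. The level and the read share stood far apart for this exon, with 91.9% inclusion reads and 13608 reads that fit both forms. Which of the 2 is nearer to the true use of the exon was not tested. SNRPG, a core protein of the spliceosomal snRNPs, had a frame-shifting 23 nt exon at 0.74 (0.66 to 0.80) with 247 and 18, a share of 93.2% inclusion reads. MTMR1, a lipid phosphatase, had a 24 nt exon at 0.13 with 75 and 421. These differ from the near-absent 12 nt exons of USO1, a Golgi tethering factor, and of TEAD1, the DNA-binding partner of YAP1, which had 0 inclusion reads of 152 (up to 1.97%) and of 24 (up to 12.5%). DNM2, the GTPase dynamin, held both kinds: a 30 nt exon with 0 inclusion reads of 305 (up to 0.984%) and a 12 nt exon at 0.43 (0.30 to 0.57) with 26 and 17.

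Intron length showed no stable order. Exons between introns that were both under 500 nt (1497) were intermediate in 21.8% and those between introns both over 5000 nt (2628) in 21.2%, 0.687 percentage points apart. With 5 reads of each kind the shares were 6.28% and 10.3%, in the opposite order. Reads that fitted neither form rose with the length of the flanking introns, with medians of 44.7%, 52.1%, 62.9% and 81.6% of an event's reads over 4 equal parts of the exons by total intron length. How many of them were intronic reads was not tested.

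Base composition of the exons was compared on the sense strand of annotated coding exons. Of those at 0.9 or more (6215), 47.4% began with G, against 35.1% of those at 0.1 or less (871). The purine motif GAAGAA, a known exonic splicing enhancer, occurred 1.40 times per kb in the first and 0.778 times in the second. TAGG, the core of the motif bound by hnRNP A1, occurred 0.943 and 1.27 times. An AG end was found in 57.2% and 55.7%, and within principal transcripts in 57.5% and 46.9% (5798 and 145 exons). These are counts of letters in exons of different lengths, with medians of 117 and 75 nt, and say nothing of binding.

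The coding exons of named genes with the most reads of both kinds came from several functions. NASP is a histone chaperone, and the 1017 nt exon that separates its long and short forms (chr1:45607321-45608337) stood at 0.22 (0.21 to 0.23) with 3156 inclusion and 1078 exclusion reads. ARHGDIA, a regulator of actin dynamics, included a 77 nt exon at 0.72 with 2573 and 404. PCBP2, a poly(C)-binding protein, included a 93 nt exon at 0.79 with 2510 and 261. The long form of NASP was thus the minor one by level, and the longer forms of ARHGDIA and PCBP2 the major ones.

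SDHA, a subunit of respiratory complex II, included a 144 nt exon at 0.87 (0.85 to 0.88) with 3169 and 283 reads. FOSL1, the FRA-1 transcription factor, included a 103 nt exon at 0.83 with 2305 and 196. APLP2, a relative of the amyloid precursor protein, included a 153 nt exon at 0.75 with 2917 and 115. HNRNPM, a splicing regulator of mesenchymal breast cancer cells, included a 45 nt exon at 0.72 (0.70 to 0.74) with 1478 and 376. By level, each of these exons was in the majority of transcripts. ASPM, a spindle pole protein, had a 4755 nt exon at 0.70 (0.66 to 0.74) with 7156 inclusion reads and only 46 exclusion reads. Exons of the ribosomal protein genes RPLP0 and RPS9 were as deep, at 0.76 and 0.69, but near-identical copies of such genes make their reads uncertain.

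Gene lists were compared by the share of their exons that were intermediate with both kinds of read, beside the 9.65% of all exons. The lists were written with results of these data known, and genes known for alternative exons head them by construction: 21.2% of 302 exons in known switch genes and 19.3% of 233 in genes of the epithelial-mesenchymal switch. Core spliceosome genes had 18 of 108 (16.7%), SR proteins and their partners 15 of 91 (16.5%), and hnRNPs and other splicing regulators 27 (14.9%). Growth signalling genes had 46 of 308 (14.9%). At the other end were ribosomal protein genes with 6 of 114 (5.26%) and DNA repair genes with 12 of 222 (5.41%). For ribosomal protein genes that place held only with the added read rule. By the interval alone 31 of their exons (27.2%) were intermediate, above the 22.4% of all exons, and 24 of the 31 had 0 exclusion reads. DNA repair genes had 42 (18.9%) by the interval alone. No test was made of these shares.

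**Figure D4:**
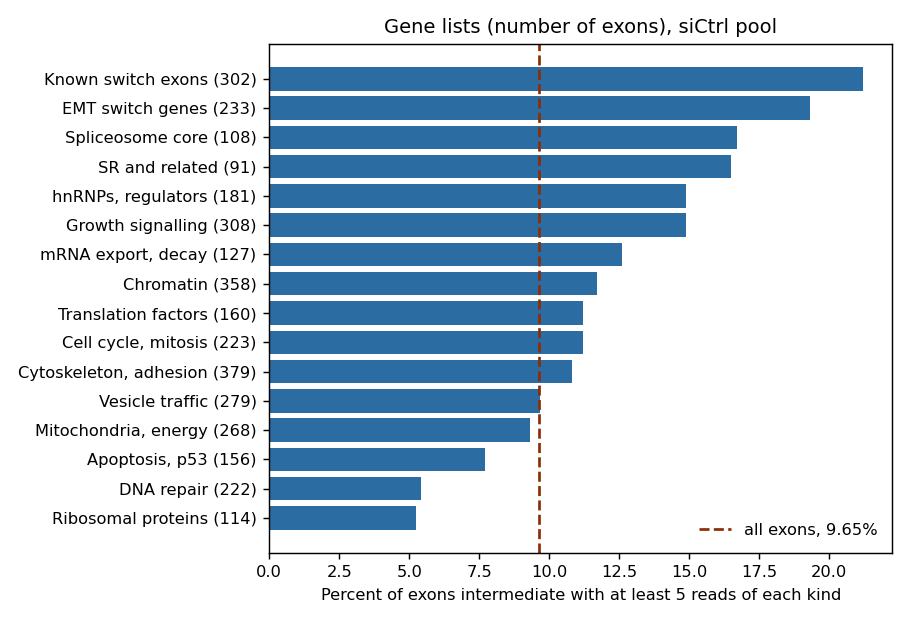
Percent of exons that were intermediate with at least 5 reads of each kind (horizontal axis) in each of 16 gene lists (vertical axis, number of exons). The dashed line marks the 9.65% of all exons, and the lists run from 21.2% for known switch genes to 5.26% for ribosomal protein genes.

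Within the machinery of splicing, exons of SR proteins had a median level of 0.25, against 0.83 for all exons. Of the 91, 38 (41.8%) stood at 0.1 or less, against 20.6% of all, and 28 (30.8%) were decay exons, against 12.2%. Core spliceosome exons had a median of 0.245, with 45 of 108 (41.7%) at 0.1 or less and 26 (24.1%) decay exons. SF1, the branch point binding protein, included a 76 nt exon at 0.84 with 869 inclusion and 14 exclusion reads. U2AF1, which reads the 3′ splice site, has a pair of alternative 67 nt exons that stood at 0.73 and 0.38, uncertain because of a near-identical gene copy. TRA2A had a 189 nt coding exon at 0.57 with 493 and 6, and HNRNPA2B1 included the 36 nt exon of its B1 form at 0.14 (0.12 to 0.17) with 121 and 248.

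PTBP1, a repressor of exons, included its 34 nt exon at 0.98 with 1362 and 19 reads. Its 78 nt exon had a level of 0.47 and an overlapping 57 nt form 0.41, although 96.1% and 94.2% of their informative reads were inclusion reads. HNRNPD, an RNA-binding protein of mRNA decay, had a 147 nt coding exon at 0.04 (0.04 to 0.05) with 551 inclusion and 260 exclusion reads and 12685 reads that fit both forms. For the PTBP1 78 nt and 57 nt forms and the HNRNPD exon the level and the read share stood far apart, which was not so for the PTBP1 34 nt exon (98.6% inclusion reads).

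DNA repair exons had a median of 0.895 against 0.83 and 111 of 222 (50%) at 0.9 or more against 42.8%. At 0.1 or less stood 26 (11.7%), against 20.6%. Of the DNA repair exons 72.5% were coding, and all coding exons had a median of 0.92 with 56.1% at 0.9 or more. ERCC1, an endonuclease subunit of nucleotide excision repair, was an intermediate case with a 72 nt exon at 0.65 (0.56 to 0.74), 145 inclusion and 25 exclusion reads. In XPA, a damage sensor of the same pathway, a 231 nt decay exon stood at 0.18 with 28 and 68. Apoptosis and p53 genes had 12 of 156 (7.69%), among them BCLAF1, whose 147 nt exon stood at 0.72 with 838 and 89. Mitochondrial and energy genes had 25 of 268 (9.33%) and cell cycle genes 25 of 223 (11.2%). BIRC5, the mitotic regulator survivin, had an 816 nt exon in a noncoding transcript at 0.54 with 1241 and 182.

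Chromatin genes had 42 of 358 (11.7%). EED, a core subunit of the Polycomb complex that methylates histones, had a 75 nt exon at 0.13 (0.11 to 0.15) with 124 inclusion and 591 exclusion reads. Growth signalling examples were MAP3K7, the TAK1 kinase, with an 81 nt exon at 0.19 (0.12 to 0.27), 21 and 45 reads, and YAP1, the Hippo pathway coactivator, with a 48 nt exon at 0.44 (0.35 to 0.54), 81 and 17 reads.

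Genes known for alternative exons give the profile of these cells most directly. Of their 3 deepest exons each, 53 in 38 genes were coding and had at least 5 exclusion reads. Of these 53, 11 stood at 0.9 or more, 13 at 0.1 or less and 25 were intermediate with both kinds of read. The requirement of exclusion reads enters the last class, and among all 6634 exons with at least 5 exclusion reads 6.12% stood at 0.9 or more, 57.6% at 0.1 or less and 27.6% were in that class. Lengths were divisible by 3 in 46 of the 53, against 48.7% of all coding exons. In 45 the level was lower than the share of inclusion reads.

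**Figure D5:**
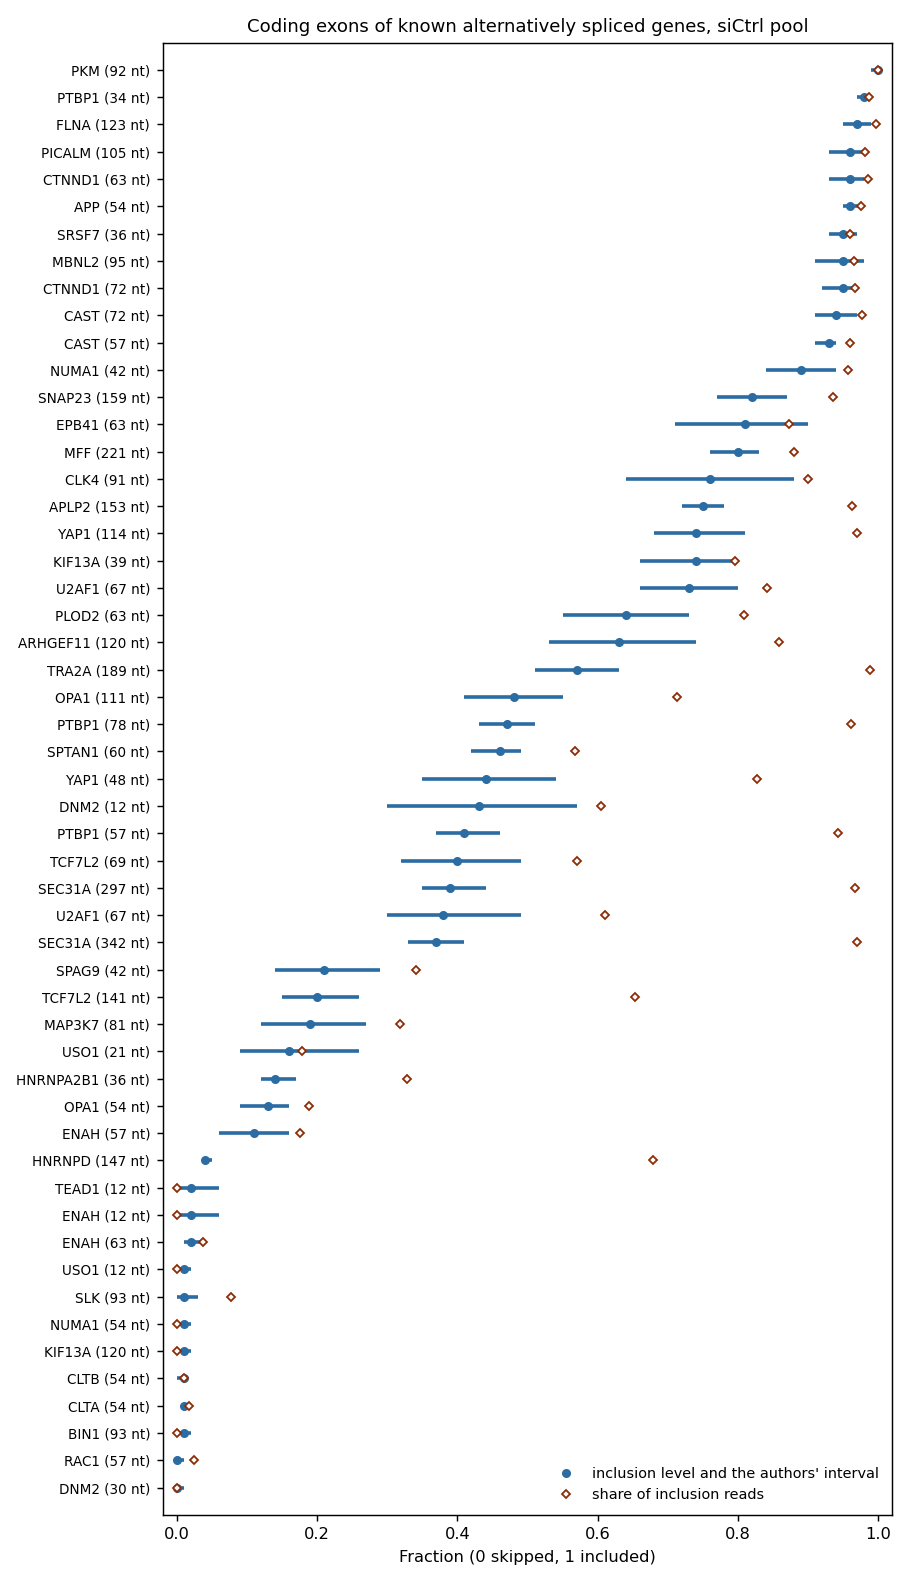
Inclusion level with the authors' interval (filled points and bars) and share of inclusion reads (open diamonds), both as fractions on the horizontal axis, for 53 coding exons with at least 5 exclusion reads in genes known for alternative splicing (vertical axis, exon length in nt). Exons run from skipped (DNM2 30 nt, RAC1 57 nt, CLTA 54 nt) through intermediate (SPTAN1 60 nt at 0.46) to included (APP 54 nt, CTNND1 72 nt and 63 nt).

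Some exons of known switch genes were mostly skipped by level. RAC1, a GTPase of actin dynamics, left out the 57 nt exon of its RAC1b form at a level of 0.00 (0.00 to 0.01) with 3 inclusion reads of 121 (2.48%, 95% Wilson interval 0.847 to 7.04). The brain-type 54 nt exons printed above stood at 0.01 in CLTA, with 13 inclusion reads of 756, and at 0.01 in CLTB, with 2 of 189, where a gene on the other strand overlaps. BIN1, a membrane-bending adaptor, had a 93 nt exon with 0 of 61 inclusion reads (up to 4.92%). ENAH, the actin regulator Mena, had its 63 nt exon, known as the epithelial 11a exon, at 0.02 (0.01 to 0.04) with 5 of 133 (3.76%, 1.62 to 8.50) and a 57 nt exon at 0.11.

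Adhesion and cytoskeleton genes had a median level of 0.43, with 137 of 379 exons (36.1%) at 0.1 or less, against 20.6% of all, 112 (29.6%) at 0.9 or more, against 42.8%, and 41 (10.8%) intermediate with both kinds of read. The 63 nt exon of ENAH and the 30 nt exon of DNM2 are among the skipped ones, and included and intermediate examples follow. CTNND1, the p120 catenin that holds cadherins at the membrane, included its 72 nt exon at 0.95 (0.92 to 0.97) with 432 inclusion and 15 exclusion reads and its 63 nt exon at 0.96 (0.93 to 0.98) with 524 and 8. CTTN, the actin-branching adaptor cortactin, used a 111 nt exon that codes for an actin-binding repeat at 0.58 (0.56 to 0.61) with 1220 and 400. SPTAN1, the alpha chain of non-red-cell spectrin, used its 60 nt exon at 0.46 (0.42 to 0.49) with 418 and 319. Reads for transcripts with and without these exons were thus present in both genes.

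KIF13A, a kinesin, included a 39 nt exon at 0.74 (0.66 to 0.80) with 116 and 30. PLOD2, a collagen-modifying enzyme, included a 63 nt exon at 0.64 with 126 and 30, where a gene on the other strand overlaps. EPB41, a linker of spectrin to the membrane, had a 63 nt exon that stood at 0.81 with 69 and 10.

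Further exons of known switch genes lay in genes of mitochondria, membranes and signalling. OPA1, which fuses mitochondrial inner membranes, had a 54 nt exon at 0.13 (0.09 to 0.16) with 46 and 197 reads, a 111 nt exon at 0.48 with 176 and 71 that overlaps an antisense gene, and a 108 nt exon at 0.97. MFF, a receptor of mitochondrial fission, included a 221 nt exon at 0.80 (0.76 to 0.83) with 567 and 78. APP, the amyloid precursor protein, included a 54 nt exon at 0.96 (0.95 to 0.98) with 807 and 21. CAST, the calpain inhibitor calpastatin, included a 57 nt exon at 0.93 with 1081 and 46. TCF7L2, a Wnt pathway transcription factor, had a 69 nt exon at 0.40 (0.32 to 0.49) with 57 and 43.

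Some exons of textbook switch genes could not be read from exclusion reads in this pool. They were picked by read depth within each gene, so they need not be its switch exon. In FN1, fibronectin, a 267 nt exon had a level of 0.84, a 192 nt form 0.60 and a 270 nt exon 0.35, each with 0 exclusion reads, of 914, 469 and 394, which allow exclusion shares of up to 0.328%, 0.64% and 0.761%. NUMB, a regulator of Notch and endocytosis, had a 147 nt exon at 0.34 with 62 inclusion reads and 0 exclusion reads, which allows an exclusion share of up to 4.84%. The FN1 192 nt and 270 nt exons and the NUMB exon were intermediate while no read showed them to be skipped.

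Genes with several intermediate exons were listed apart. Of 2683 genes with at least 3 kept exons, 1158 (43.2%) had an exon at 0.1 or less as well as one at 0.9 or more. DAG1, which encodes dystroglycan, had 8 kept exons, all 8 intermediate with both kinds of read, between 0.21 and 0.63; 5 did not overlap one another, and they lay in its 5′ leader or in noncoding forms of it. MCTP1, a calcium-binding membrane protein, had 4, at 0.35, 0.59, 0.17 and 0.73, all coding. GRB10, an adaptor of insulin signalling, had 4: a leader exon at 0.34, partly coding exons at 0.58 and 0.64 and a coding exon at 0.78. In all, 180 genes had at least 2 such exons that did not overlap. Neighbouring cassettes can share their exclusion reads, so these counts may rest on fewer skipping junctions. In DAG1, 6 of the 8 exons had the same number, 10 exclusion reads, and the same 264 reads fitting both forms. In MCTP1 the exons at 0.17 and 0.73 had 11 exclusion reads each. In GRB10 the exons at 0.34 and 0.64 had 16 exclusion reads and 118 reads fitting both forms each.

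By the interval alone PIGT and SPG7 led, with 10 intermediate exons each, of 15 and 31 kept. SPG7 encodes a mitochondrial protease, and 3 of its 10 also had both kinds of read. PIGT encodes a subunit of the enzyme that attaches GPI anchors, and its 5 with both kinds of read were forms of 1 region. Overlap was common beyond these genes: 4753 exons (25.1%) overlapped another kept exon, leaving 16317 separate places. The flanking exons chosen for an event also moved the level. Among 1892 exons listed in several events with enough reads, the level differed between events by a median of 0.08, and in 852 (45%) by 0.1 or more.

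The labelled cell type was compared with its markers by informative reads in their exons, a rough measure since it needs a cassette event. Mesenchymal genes had exons for 8 of 12 and 12374 reads, 0.238% of informative reads in the summary, led by CD44 with 6784, FN1 with 1867 and ZEB1, a repressor of epithelial genes, with 1695. VIM, CAV1, MSN and SNAI2 had no exon in the summary. Epithelial or luminal genes had exons for 9 of 12 and 5253 reads (0.101%), of which KRT8, a keratin, held 5127. In that list CDH1, ESRP1 and ESR1 had 3, 4 and 0 reads, while GATA3 had 62 and ESRP2 42, more than the 37 of the mesenchymal gene SPARC. Markers of other cell types had exons for 4 of 7 and 45 reads. Among all kept exons 9.18% overlapped a gene on the other strand, and 96.7% matched an annotated exon exactly.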

How the data were processed

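Levels came from the skipped-exon summary that the authors deposited for the siCtrl pool of 2 libraries. Its column names match MISO, which estimates exon inclusion. MISO's version and settings are not given in the sources here, nor is the way both libraries were pooled. Per the file headers, the inclusion level is a fraction (posterior mean) with interval bounds, and reads are counted in classes that fit inclusion only, exclusion only, both or neither. STAR 2.7 and hg38 are named, with no role, per the submitters' processing notes. The number of unused columns of per-sample values was 0.

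Exons with at least 20 informative reads were kept, 1 event per exon, the one with the most. Places, frames and gene names came from GENCODE 29 on hg38, whose transcripts also gave the exon sequences; coordinates count from 1. No comparison was tested, because the pool is 1 sample and exons are not replicates. Classes were described by counts and medians beside those of all exons. Wilson intervals (95%) and the upper limit of 3 reads for a count of 0 cover counting error only. Calls by read share and the counting intervals were tested on simulated reads. That cannot check the main calls, which use the deposited level and interval. Python 3.11.15, pandas 2.3.3, numpy 2.4.6 and matplotlib 3.10.9 were used.

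Members, gene lists and classes were chosen with earlier results of these data known. Named exons were the 12 deepest intermediate ones, the 6 deepest at 0.1 or less and the 6 deepest at 0.9 or more with at least 5 exclusion reads, the 3 deepest intermediate ones of each class and gene list, up to 3 exons of each known switch gene, and the 5 genes with most intermediate exons. The same choice was repeated for intermediate exons with at least 5 reads of each kind, a rule added after the data were seen. Of the ranked exons, some ribosomal and housekeeping ones are not described, and those of 3 other genes are not reported here. Whether reads were counted by strand is likewise not stated in them. Exons under an antisense gene are therefore uncertain, as are genes with near-identical copies.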

Additional observations from a re-analysis of the deposited data

How the results depend on the processing

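No paired analysis was possible because both siCtrl libraries enter 1 deposited summary and no test was made; for the same reason no library could be left out. Of 60 alternative values of the 7 main results, 31 moved beyond the counting interval of the reported value or changed sign; the cause was not tested beyond what each change does by construction. The share of exons at 0.9 or more (42.8%) became 35.8% with at least 10 informative reads, 52.9% with at least 50, 69.2% by the share of inclusion reads, 43.6% over all events, 57.1% with 1 exon per gene and 31.5% with thresholds of 0.95 and 0.05. The share at 0.1 or less (20.6%) became, in the same order, 21.9%, 17.7%, 14.2%, 18.6%, 12.2% and 16.8%, and 21.5% with overlapping forms counted once. The intermediate share (22.4%) became 20.6% with at least 50 reads, 11.4% by read share, 17.7% with 1 exon per gene, 30.4% with thresholds of 0.95 and 0.05, 9.65% with 5 reads of each kind and 21.4% with overlapping forms once. The lead of coding over 5′ UTR exons at 0.9 or more (37.5 points) became 34.9 with at least 10 reads, 40 with at least 50, 43.5 by read share, 31.6 over all events and 31.3 with thresholds of 0.95 and 0.05. Microexons against 91 to 180 nt exons (-8.81 points intermediate) became 0.76 by read share, 2.80 with 5 reads of each kind and -1.78 with 1 exon per gene. Short against long introns (0.687 points) became -3.52 by read share, -1.53 with 1 exon per gene, -4.03 with 5 reads of each kind and -1.86 with overlapping forms once. The difference between frame-keeping and frame-shifting exons (5.79 points) did not move under any alternative run, and leaving out exons with an antisense gene moved none of the main results. By read share in place of the level, 192 of 275 named exons moved, and of 875 alternative shares of classes and lists 390 did. The 2 alternatives of 5 reads of each kind and of overlapping forms once were chosen after seeing the data. Depth limits single exons: at 20 to 22 informative reads the authors' interval had a median width of 0.27.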
